A study of Mus musculus with 10 samples.

Results

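Pseudogenes are copies of genes that the annotation regards as having lost the ability to make the original protein. Processed pseudogenes arise when a messenger RNA is copied back into DNA and inserted elsewhere in the genome, so they lack introns and usually lie far from the gene they came from, called the parent here. Unprocessed pseudogenes arise by duplication of a stretch of DNA and often stay near the parent, and unitary pseudogenes are single genes that were disabled in place. The testis is known for transcribing an unusually wide range of such loci, and new retrocopies enter the germ line through the cells of the gonads.

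The expressed pseudogenes described here were selected on their level, as the rows given the biotype pseudogene in the authors' deposited count table that averaged at least 1 CPM (the row's counts per 1000000 counts of the library) over the FXR-/- or over the WT libraries. There were 261 of them among 4264 pseudogene rows and 30719 rows in all. RNA came from whole testes of mice at postnatal day 10, in 2 groups of 5 mice with 1 library per mouse. The FXR-/- mice lack FXRα, the bile acid receptor encoded by Nr1h4, and the WT mice carry it. Both groups were of a mixed 129sv and C57Bl6 background, no treatment was given in the labels, and the labels do not say whether the mice of 1 genotype were littermates or how the null allele was kept. All libraries were run on 1 flowcell. The question of the study was which testicular transcripts differ when the receptor is missing.

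Depth was 32330029 to 39655170 counts per library, so that 3 counts, used below as the floor of detection, equal 0.0757 to 0.0928 CPM. Such floors and the intervals below cover counting error only. The Nr1h4 row had 8, 9, 11, 11 and 13 counts in FXR-/- libraries 8 to 12, against 15, 15, 13, 14 and 26 in WT libraries 3, 4, 5, 6 and 9, so the targeted gene was close to the floor in both genotypes and the groups met at 13 counts. Markers of the seminiferous tubule were present in every library. Sertoli cell markers summed to 2650 to 3839 CPM in FXR-/- and 3833 to 4780 CPM in WT libraries, and 6 of 10 were lower and 1 higher in FXR-/- testes. Adipocyte markers summed to 203.5 to 1240 CPM in FXR-/- and 46.9 to 189 CPM in WT libraries with 7 of 8 higher, and duct epithelium markers to 76.3 to 139 CPM in FXR-/- and 29.9 to 46.4 CPM in WT libraries with 8 of 8 higher. The least abundant adipocyte marker, Cidec, averaged 5.19 CPM and the least abundant duct marker, Ros1, 1.14 CPM. The part of these tissues in the results on pseudogenes was not tested, and in whole testis fewer cells of a type cannot be told apart from less RNA per cell.

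The members had first to be placed by type and origin. GENCODE M21 annotated 140 of them as processed and 70 as unprocessed pseudogenes, 3 as unitary and 8 simply as pseudogenes. It had re-annotated 13 as genes of other types, 8 of them protein-coding, and held no entry for 27, of which 11 had a position in RefSeq. One of the re-annotated members is Gm14490, now Dnmt3c, the rodent DNA methyltransferase that silences young transposons in male germ cells. Its row averaged 3.40 ± 0.341 CPM in FXR-/- and 4.17 ± 0.521 CPM in WT testes (SD, n = 5 each; edgeR adjusted p = 0.0759). A parent was assigned where a member's transcript matched a protein-coding transcript over at least 50% of its length at 80% identity or more. This gave 153 members with 133 distinct parents. Together the 261 members took 0.186 ± 0.0065% of all counts in FXR-/- and 0.163 ± 0.0075% in WT testes (SD, n = 5 each).

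Some of the members that differed most between mice were near-perfect copies of their parents, and the few bases that set 4 of them apart are shown first, because reads that cover none of these match both loci. Others were more diverged, as given below. Each line gives 29 bases, 5′ to 3′, with the differing base in capitals, from the GENCODE M21 transcripts on GRCm38. The substitution names the parent's base, the position counted from the 5′ end of the pseudogene transcript and the pseudogene's base. Gm13394 differed from Gapdh by 1 of 1000 bases (A346C, chr2:28934250-28934278, minus strand), Gm15487 from Atp6v0c by 1 of 465 (T111C, chr6:37806182-37806210, plus strand), Rpl3-ps1 from Rpl3 by 2 of 1210 (C58A, chrX:13202614-13202642, and T787C, chrX:13203343-13203371, plus strand) and Gm15920 from Ndufa12 by 2 (A99G, chr5:130188479-130188507, and T378C, chr5:130188758-130188786, plus strand).
Gm13394 at A346C: agggtggagccaaaCgggtcatcatctcc
Gapdh: agggtggagccaaaAgggtcatcatctcc
Gm15487 at T111C: ggcacagccaagagCggcactggcatcgc
Atp6v0c: ggcacagccaagagTggcactggcatcgc
Rpl3-ps1 at C58A: ggcttcctgcctcgAaagcgcagcagccg
Rpl3: ggcttcctgcctcgCaagcgcagcagccg
Rpl3-ps1 at T787C: caccctgcccgtgtCgccttctctgtggc
Rpl3: caccctgcccgtgtTgccttctctgtggc
Gm15920 at A99G: gaagacaaatatggGaataaatactacga
Ndufa12: gaagacaaatatggAaataaatactacga
Gm15920 at T378C: attcatgaatgggtCccaccttcgacacc
Ndufa12: attcatgaatgggtTccaccttcgacacc
All of these bases lie in the coding part of the parent's transcript. Gm10182 had no difference from Hmgn2 over its 273 bases, so within the annotated copy no base separates the pair.

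Of the 261 members, 193 reached 1 CPM in both genotypes, 44 in FXR-/- testes alone and 24 in WT testes alone. The filter on low counts let 251 through to the edgeR quasi-likelihood test, and the 10 it removed were all members with counts in some FXR-/- libraries and few or none in WT. Of the 251, 37 were higher and 17 lower in FXR-/- testes and 197 did not pass. Across all 18559 tested genes 13.9% were called, 6.17% higher and 7.71% lower. Because the members that reached the limit in a single genotype had to lean that way, the balance is better read in the 193 that reached it in both: 19 of these (9.84%) were higher and 6 (3.11%) lower, beside 5.82% higher and 8.76% lower among all tested genes, and 5.83% and 9.28% among protein-coding genes, with 1 CPM or more in both. The genotypes did not overlap in CPM for 57 members (21.8%), beside 13.1% of all rows that reached 1 CPM in either genotype. The 57 were counted over all 261 members, so those that had to lean to 1 genotype bear on this share. The median log2 fold change of the tested members was 0.05, that of all tested genes 0.01.

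Members were frequent among the genes with the largest differences, as a description, since their level chose them. Among all tested genes, 80 were called at least 4-fold higher in FXR-/- testes, and 18 of these were members, while tested members made up 1.35% of the genes tested. At least 4-fold lower were 27 genes, of which 7 were members. The plot of mean levels by genotype shows these members as points lying far from a diagonal along which the others gather.

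**Figure D1:**
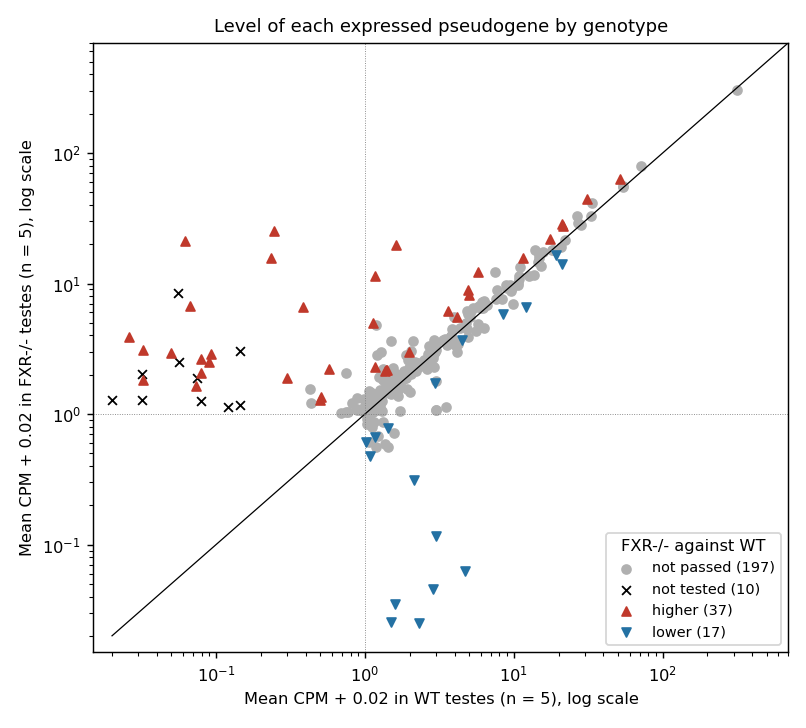
Mean CPM of each of the 261 expressed pseudogenes in FXR-/- testes (vertical) against WT testes (horizontal), both on log scales with 0.02 CPM added; red triangles were called higher (37), blue triangles lower (17), grey points did not pass (197) and crosses were not tested (10). Dotted lines mark 1 CPM; most members lie along the diagonal, and a group at the left edge and another at the bottom have almost no counts in 1 genotype.

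A total of 24 members (9.2%) were nearly absent from 1 genotype, which meant an average under 0.1 CPM there and at least 1 CPM in the other. Among protein-coding rows that reached 1 CPM in either genotype, 11 of 14541 (0.0756%) met the same limits. At matched levels, a mean of 1 to 5 CPM over all libraries, the shares were 9.62% of 156 members and 0.211% of 2373 protein-coding rows. The near absences were from WT testes for 18 members and from FXR-/- testes for 6, and 16 of the 24 exceeded 1 CPM in all 5 libraries of the other genotype (11 and 5). Their loci lay on 13 chromosomes. A parent was found for 22, and 18 of these had it on another chromosome. These members were picked for their difference, so the values that follow describe it.

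The most abundant of them was Gm13394 (chr2:28933610-28934609, minus strand, in an intron of Cfap77), a copy of Gapdh, the glycolytic glyceraldehyde-3-phosphate dehydrogenase. It had 32.1, 30.0, 15.4, 14.5 and 14.4 CPM in FXR-/- libraries 8 to 12, against 1, 1, 1, 2 and 2 counts in WT libraries 3, 4, 5, 6 and 9. All 5 FXR-/- libraries lay far above all WT libraries, and within FXR-/- mice 8 and 9 stood at about the same higher level and the other 3 at a common lower one. The ratio of its pooled counts, each over the pooled library totals of its genotype, was 502, FXR-/- over WT (95% counting interval 244 to 1250; edgeR adjusted p = 1.96e-07). Gm15487 (named Atp6v0c-ps2 in M21), a copy of the gene for the proteolipid of the vacuolar proton pump, had 3.48, 7.57, 7.36, 7.10 and 7.79 CPM in FXR-/- libraries, against 1, 3, 0, 2 and 2 counts in WT libraries. Here the FXR-/- library of mouse 8 stood apart below the other 4. The ratio was 142 (interval 72.0 to 330) and the edgeR adjusted p 3.51e-07.

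Copies of genes of translation and RNA handling followed. Gm11222, a copy of Rpl7l1, which encodes a relative of ribosomal protein L7, had 2.97, 2.55, 4.99, 3.97 and 4.76 CPM in FXR-/- libraries, against 0, 0, 1, 0 and 0 counts in WT libraries. With 1 WT count the ratio of 657 had a counting interval of 118 to 25982. Eif3s6-ps2, a copy of the translation initiation factor subunit gene Eif3e, had 1.03, 2.25, 1.69, 1.81 and 2.22 CPM in FXR-/- libraries, against 0, 0, 1, 1 and 0 counts in WT libraries. Both were thus detected in every FXR-/- mouse and almost never in a WT mouse. Gm14292, a copy of Wtap, a subunit of the complex that methylates adenosines in messenger RNA, had 1.88, 3.32, 3.05, 2.76 and 3.50 CPM in FXR-/- libraries, against 1, 0, 1, 3 and 0 counts in WT libraries. Its ratio was 98.8 (interval 42.1 to 306).

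Copies of genes for kinases, cyclins and chromatin proteins showed the same arrangement. Akt2-ps, from the insulin-signalling kinase gene Akt2, had 2.66, 2.85, 2.50, 2.16 and 2.17 CPM in FXR-/- libraries, against 3, 5, 1, 2 and 1 counts in WT libraries. Gm3555, from the kinase gene Stk38l, had 4.24, 3.70, 2.09, 2.08 and 2.22 CPM in FXR-/- libraries, against 2, 1, 5, 1 and 3 counts in WT libraries. As with Gm13394, the libraries of FXR-/- mice 8 and 9 were the higher 2 of the 5. Ccnd3-ps, from the cyclin D3 gene, had 1.76, 1.29, 2.40, 2.66 and 2.12 CPM in FXR-/- libraries, against 1, 2, 0, 5 and 2 counts in WT libraries. Gm18367, from Hmgb3, which encodes a high mobility group protein, had 1.36, 3.15, 2.70, 3.55 and 2.33 CPM in FXR-/- libraries, against 2, 1, 2, 3 and 2 counts in WT libraries. In each of these 4 the lowest FXR-/- library lay above the highest WT library. Gm12663, for which no sequence was at hand, had 2.66, 2.60, 3.38, 3.08 and 3.61 CPM in FXR-/- libraries, against 0, 0, 1, 0 and 1 counts in WT libraries. Gm15264, an unprocessed copy of the tuftelin gene Tuft1 on the same chromosome, had 1.51, 1.34, 1.49, 2.24 and 1.57 CPM in FXR-/- libraries, against 0, 2, 2, 2 and 3 counts in WT libraries. The edgeR adjusted p of these 6 ranged up to 1.16e-05, and their ratios ranged from 30.6 for Gm15264 to 260 for Gm12663 (interval 71.7 to 2154).

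The remaining 7 members nearly absent from WT were present in some FXR-/- libraries and at the floor in others, and all 7 failed the filter on low counts. Gm10182 on chromosome 9 and Gm15195 on chromosome X are both copies of Hmgn2, the gene of a nucleosome-binding protein. Gm10182 had 23.1 and 18.9 CPM in FXR-/- libraries 8 and 9 and 2, 3 and 0 counts in FXR-/- libraries 10, 11 and 12, against 1, 1, 1, 3 and 0 counts in WT libraries. Gm15195 had 3.36 and 2.85 CPM in FXR-/- libraries 8 and 9 and 1, 0 and 1 counts in FXR-/- libraries 10, 11 and 12, against 0 counts in every WT library. Both were therefore high in the same 2 mice, and whether reads were shared between the 2 rows was not tested. Against a floor of 3 counts per library, Gm15195 was at least 14.1-fold higher on average in FXR-/- testes. Gm7658, a copy of the initiation factor gene Eif3m on chromosome 1, had 0.0908, 0, 4.41, 3.95 and 4.08 CPM in FXR-/- libraries, against at most 4 counts in a WT library. Gm14681, a copy of the nucleophosmin gene Npm1 on chromosome X, had 0.121, 0.0548, 2.98, 3.37 and 2.90 CPM in FXR-/- libraries, against at most 5 counts in a WT library. These 2 were high in FXR-/- mice 10, 11 and 12, the mice in which the Hmgn2 copies were at the floor.

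The remaining 3 completed the 18, each in its own subset of mice. Eif5al3-ps, a copy of the translation factor gene Eif5a, had 0.0303, 3.59, 3.18, 3.16 and 0.0784 CPM in FXR-/- libraries, against 0, 1, 0, 1 and 0 counts in WT libraries. Gm11868, a copy of the cytochrome b5 reductase gene Cyb5r4, had 0.0303, 2.0, 0.0252, 1.89 and 2.30 CPM in FXR-/- libraries, against 0, 1, 0, 1 and 0 counts in WT libraries. C920025E04Rik (H2-T-ps in M21), whose best match was the nonclassical class I histocompatibility gene H2-T23, had 0.0303, 1.23, 1.82, 1.21 and 1.91 CPM in FXR-/- libraries, against 2, 4, 2, 1 and 1 counts in WT libraries. Mouse 8 was at the floor for all 3.

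The 6 members nearly absent from FXR-/- testes were seen in every WT library. Gm7148 (Tgif2-ps2 in M21), a copy of the homeobox repressor gene Tgif2, had 0, 0, 0, 0 and 1 counts in FXR-/- libraries, against 2.1, 2.40, 2.17, 2.58 and 2.25 CPM in WT libraries. The ratio, WT over FXR-/-, was 426 with an interval of 76.1 to 16886. Gm15920, a copy of Ndufa12, which encodes a subunit of respiratory complex I, had 0, 1, 0, 0 and 0 counts in FXR-/- libraries, against 1.56, 1.34, 1.55, 1.42 and 1.48 CPM in WT libraries. The ratio was 273 (interval 48.5 to 10809). Gm15703, a copy of the ribonuclease H2 catalytic subunit gene Rnaseh2a, had 0, 0, 2, 1 and 0 counts in FXR-/- libraries, against 1.86, 0.971, 1.36, 1.81 and 1.89 CPM in WT libraries. The WT levels of Gm7148 and Gm15920 varied little from mouse to mouse, with an SD of 0.195 and 0.0911 CPM.

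Gm13301 and Gm5859 lie side by side at chr4:42216908-42235604 and chr4:42236859-42239182 and share the best match Gm2163. Gm13301 had 0, 1, 2, 1 and 1 counts in FXR-/- libraries, against 4.52, 2.63, 3.19, 1.96 and 1.98 CPM in WT libraries. Gm5859 had 4, 2, 4, 2 and 6 counts in FXR-/- libraries, against 5.02, 3.23, 2.17, 2.23 and 2.28 CPM in WT libraries. Gm2163 itself lies farther along the chromosome, at chr4:42466752-42589938. It averaged 0.0864 ± 0.0868 CPM in FXR-/- and 0.450 ± 0.101 CPM in WT testes (SD, n = 5 each). The 3 similar rows thus all fell, with log2 fold changes of -6.59 (Gm13301), -4.93 (Gm5859) and -2.37 (Gm2163). Reads that match more than 1 of them make these rows uncertain. Gm7809, on chromosome 17 with no sequence at hand, had 1, 1, 2, 2 and 2 counts in FXR-/- libraries, against 5.23, 4.03, 4.89, 5.25 and 4.02 CPM in WT libraries.

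**Figure D2:**
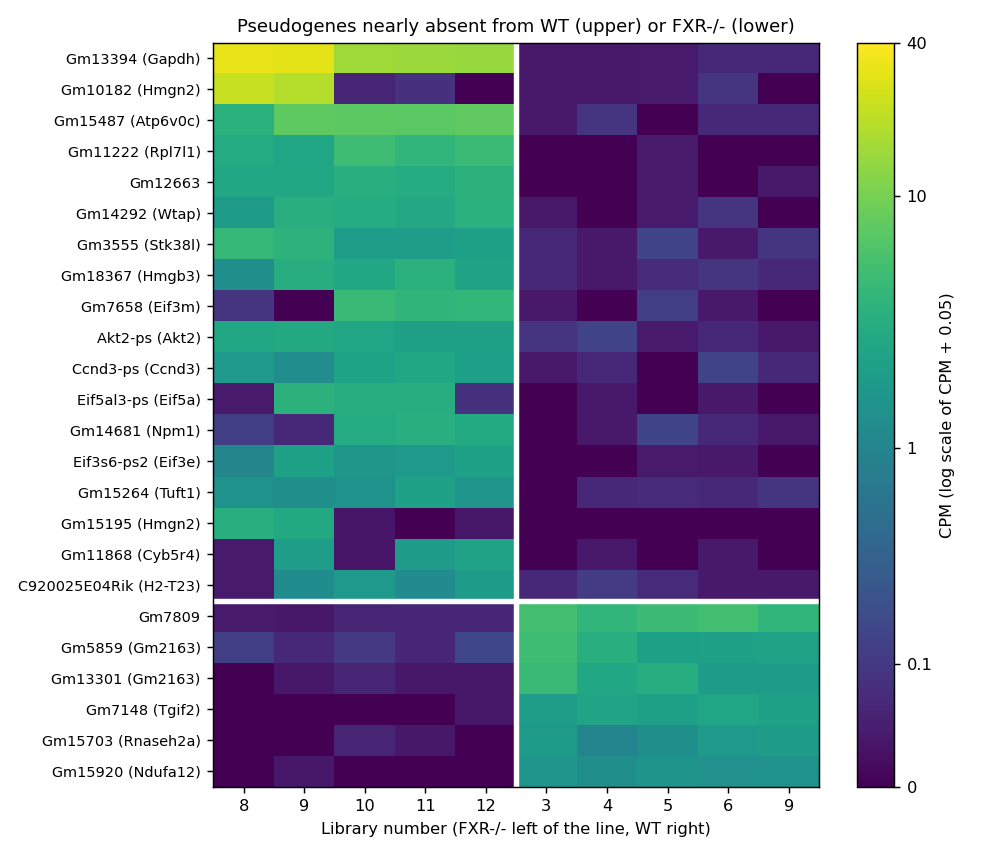
CPM in each of the 10 libraries (colour, log scale) of the 24 members nearly absent from 1 genotype, with the parent in brackets where one was found; FXR-/- libraries 8 to 12 are left of the white line and WT libraries 3, 4, 5, 6 and 9 right of it. The upper 18 rows are dark in WT, 7 of them also dark in 1 to 3 FXR-/- libraries, and the lower 6 are dark in FXR-/-.

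Steps of this kind also occurred within a genotype. In 27 members (10.3%), some library had at least 1 CPM and at least 10 times the lowest library of the same genotype, counts under 3 being raised to 3. The limits were chosen after the values had been seen. Of protein-coding rows with 1 CPM in either genotype 0.351% did so, and at a mean of 1 to 5 CPM the shares were 10.3% of members and 1.14% of protein-coding rows. The wide spread was within FXR-/- for 22 members, within WT for 9 and within both for 4. Of the 27, 7 are the partly present members just described. Of all 27, 4 were called between the genotypes, 13 did not pass and 10 were not tested.

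Rpl3-ps1, a copy on chromosome X of the gene for ribosomal protein L3, had 0, 0.0822, 12.7, 24.9 and 23.5 CPM in FXR-/- libraries, against 12.4, 12.6, 12.0, 0.119 and 0.0887 CPM in WT libraries. It was thus at the floor in 2 mice of each genotype, near 12 CPM in 1 FXR-/- and 3 WT mice and near 24 CPM in 2 FXR-/- mice, with no call between the genotypes (edgeR adjusted p = 0.736). Gm6733, matched to the signal recognition particle receptor gene Srpr, had 0.0908, 2.17, 4.56, 3.92 and 4.08 CPM in FXR-/- libraries, against 3.84, 0.143, 0.0619, 0.119 and 2.13 CPM in WT libraries. Gm8615, a copy of the glucosamine-6-phosphate deaminase gene Gnpda1, had 0.121, 2.77, 4.87, 5.47 and 4.89 CPM in FXR-/- libraries, against 2.24, 0.200, 2.47, 2.37 and 0.0591 CPM in WT libraries. These 2 likewise took low, middle and high values in mice of 1 genotype.

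Both copies of Tdg, the gene of thymine DNA glycosylase, had similar profiles over the mice and lie on different chromosomes. They were 98.7% (Gm5806) and 99.2% (Gm9855) identical to Tdg, and reads that match both make these rows uncertain. Gm5806 (Tdg-ps in M21, chromosome 15) had 2.97, 2.52, 0.0252, 0 and 0.0261 CPM in FXR-/- libraries, against 3.16, 2.69, 5.38, 2.88 and 3.31 CPM in WT libraries. Gm9855 (chromosome 10) had 2.63, 2.60, 0.0252, 0.0263 and 0 CPM in FXR-/- libraries, against 1.92, 3.11, 4.39, 2.97 and 2.57 CPM in WT libraries. For both, FXR-/- mice 10, 11 and 12 were at the floor, FXR-/- mice 8 and 9 were within or near the WT range, and WT mouse 5 was highest.

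Among the members with a wide spread, 4 were called, with 3 or 4 high FXR-/- mice each. Gm6472, a copy of the ribosomal protein gene Rps7 on chromosome X, had 33.4, 0.274, 27.7, 31.7 and 32.9 CPM in FXR-/- libraries, against 0.266, 0.200, 0.402, 0.119 and 0.148 CPM in WT libraries. Its log2 fold change was 6.74 ± 0.98 (SE; edgeR adjusted p = 0.00141), with FXR-/- mouse 9 inside the WT range. Gm8399, a copy of the gamma-actin gene Actg1, had 9.75, 11.8, 0.277, 11.0 and 0.288 CPM in FXR-/- libraries, against 0.295, 0.343, 0.433, 0.326 and 0.414 CPM in WT libraries. FXR-/- mice 10 and 12 were just below the WT range. Eif4a-ps4 and 1600029I14Rik were the other 2 called, both named after their values were seen. 1600029I14Rik (Nme9 in M21) had 0.484, 2.58, 0.277, 3.05 and 3.01 CPM in FXR-/- libraries, against 0.295, 0.257, 0.155, 0.0890 and 0.591 CPM in WT libraries, and 2 FXR-/- mice lay within the WT range. Eif4a-ps4, by its name a copy of an RNA helicase gene of translation initiation, had 1.70, 31.2, 33.7, 30.9 and 1.41 CPM in FXR-/- libraries, against 1.56, 1.40, 1.86, 1.16 and 2.01 CPM in WT libraries.

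**Figure D3:**
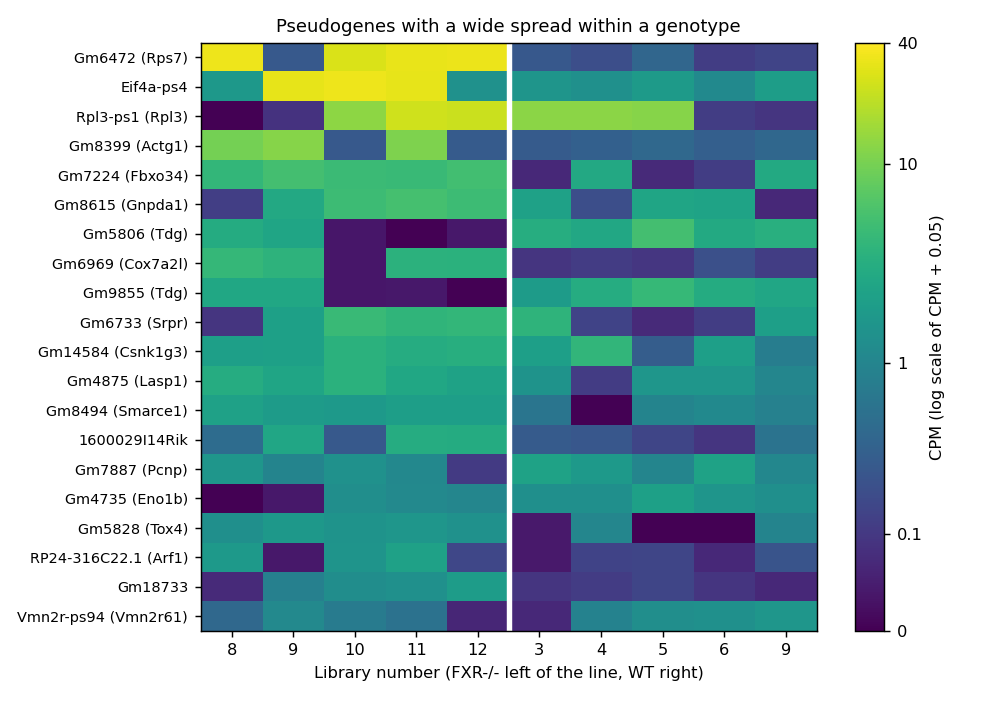
CPM in each library (colour, log scale) of the 20 members with a wide spread within a genotype that were not nearly absent from 1 of them; FXR-/- libraries are left of the white line and WT libraries right of it. Dark cells, at or near 0 CPM, fall in different mice from row to row, and Gm5806 and Gm9855, both copies of Tdg, are dark in the same 3 FXR-/- libraries.

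Levels of the parents were set beside those of their copies, since reads of nearly identical rows can be given to either. Of 117 tested parents 11 were higher, 13 lower and 93 did not pass, beside 6.17% higher and 7.71% lower among all tested genes. The log2 ratio of pseudogene to parent was compared between genotypes for 136 pairs with all 252 possible assignments of mice in an exact permutation test, two-sided. In 30 pairs it passed after adjustment, and all 30 shared the smallest p the test can give (0.00794, adjusted 0.0360). For 22 of the 30 the member reached 1 CPM in a single genotype, so the choice of members bears on its direction and these are a description. Among the 86 pairs whose member reached 1 CPM in both genotypes, 7 had a higher and 1 a lower ratio in FXR-/- testes.

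The clearest case was Capza1, which encodes a subunit of the actin-capping protein, and its copy Gm3608 on chromosome 1. Gm3608 had 14.3, 16.1, 17.7, 15.3 and 15.6 CPM in FXR-/- libraries, against 0.207, 0.229, 0.247, 0.237 and 0.148 CPM in WT libraries, a log2 fold change of 6.15 ± 0.13 (SE; edgeR adjusted p = 9.18e-11). Capza1 had 43.2, 44.9, 45.6, 47.3 and 45.2 CPM in FXR-/- libraries, against 63.0, 64.4, 65.5, 66.6 and 63.8 CPM in WT libraries, and was called lower by 0.55 on the log2 scale (log2 fold change -0.55, edgeR adjusted p = 3.77e-06). The 2 rows changed in opposite directions. Their summed level was 61.0 ± 2.21 CPM in FXR-/- and 64.9 ± 1.47 CPM in WT testes (SD, n = 5 each), and with the counts of Gm3608 added to Capza1 before the fit its log2 fold change was -0.12 (edgeR adjusted p = 0.0650). This sum and those below were an alternative chosen after seeing the data.

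Gapdh, often used as a reference transcript, had 182.4, 175.0, 195.3, 187.1 and 183.5 CPM in FXR-/- libraries, against 228.0, 230.0, 223.3, 228.0 and 237.9 CPM in WT libraries. It was lowest in FXR-/- mouse 9 and next lowest in mouse 8, the 2 in which Gm13394 was highest. Mouse 12, with less Gm13394, was close to mouse 8 in Gapdh (183.5 against 182.4 CPM). The log2 fold change of Gapdh was -0.35 ± 0.04 (SE; edgeR adjusted p = 0.000275), and -0.19 ± 0.04 (adjusted p = 0.00815) with the counts of its 4 member copies added. Gapdh therefore stayed lower in FXR-/- testes by a smaller amount. Atp6v0c likewise moved to -0.19 (adjusted p = 0.0268) with Gm15487 added, against -0.29 (adjusted p = 0.00328) alone.

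Within FXR-/- mice Hmgn2 and Tdg ran opposite to their copies. Hmgn2 had 148.0 and 132.7 CPM in FXR-/- libraries 8 and 9, where Gm10182 was high, and 177.9, 180.4 and 186.9 CPM in FXR-/- libraries 10, 11 and 12, against 157.3 to 164.2 CPM in WT libraries. Tdg had 36.7 and 34.3 CPM in FXR-/- libraries 8 and 9 and 46.7, 43.8 and 44.1 CPM in FXR-/- libraries 10, 11 and 12, where its copies were at the floor, against 26.6 to 36.8 CPM in WT libraries. With both copies added, Tdg ranged from 39.4 to 46.7 CPM in FXR-/- and 36.3 to 42.6 CPM in WT libraries. Rps7 was highest in FXR-/- library 9, at 359.8 CPM, where Gm6472 was near its WT level. The other FXR-/- libraries had 315.2 to 356.1 CPM of Rps7. WT libraries, where Gm6472 was also low, had 285.0 to 306.2 CPM, so across genotypes Rps7 did not run opposite to its copy.

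Adding the copies' counts left 21 of the 24 called parents called with their sign. Capza1, Cgn and Tmem181a were no longer called. The log2 fold change of Cgn was -0.23 with its copy added, against -0.28 alone, a small move across the threshold (edgeR adjusted p = 0.0729, against 0.0371). That of Tmem181a was -0.02 with its copy added, against -0.28 alone (edgeR adjusted p = 0.889, against 0.0496). A further 5 parents were newly called (1500011B03Rik, 9030624G23Rik, Ndc80, Rnaseh2a and Tuft1). Cgn encodes the tight junction protein cingulin, and lies at chr3:94760069-94786492, with its copy BC021767 at chr3:94661830-94670696. BC021767 had 9.50, 13.4, 11.6, 11.1 and 11.2 CPM in FXR-/- libraries, against 1.12, 1.20, 1.24, 1.25 and 0.917 CPM in WT libraries (log2 fold change 3.27 ± 0.12, SE; edgeR adjusted p = 1.20e-08). Gm15264, described above, lies between them at chr3:94720023-94758116 and its parent Tuft1 at chr3:94612757-94658872, and both copies of this interval were higher.

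**Figure D4:**
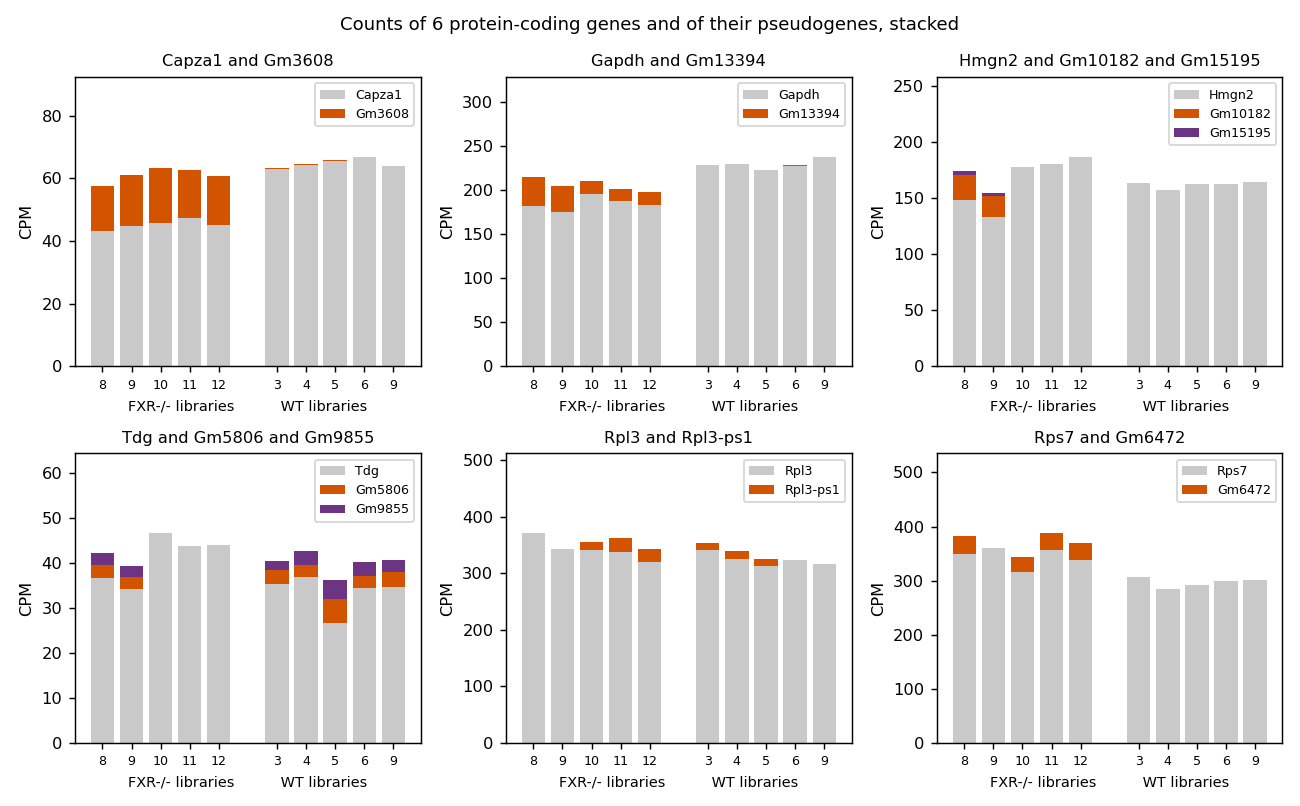
Stacked CPM per library of 6 protein-coding genes (grey) and of their pseudogene copies (orange and purple), FXR-/- libraries 8 to 12 on the left of each panel and WT libraries 3, 4, 5, 6 and 9 on the right; every axis starts at 0. Grey bars of Capza1, Gapdh, Hmgn2 and Tdg are shorter where a coloured segment is present. Those of Rps7 between the genotypes, and of Rpl3 among the WT libraries, do not follow that order.

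Similarity to the parent did not enter the choice of members and differed between these classes as a description. Identity had a median of 97.7% (range 90.1 to 100%, 22 members) among the nearly absent, 98.2% (83.9 to 100%, 24 members) among those with a wide spread, and 91.8% (80.1 to 100%, 114 members) among the others with a parent. The first 2 classes share 7 members. Of the others, 15 were at least 98% identical to a parent, so high identity also occurred in members with ordinary spread. Processed pseudogenes made up 18 of the 24 nearly absent and 21 of the 27 with a wide spread, beside 140 of all 261, and unprocessed ones 4 and 4, beside 70. The median mean level of the parents was 102 CPM for the nearly absent and 86.6 CPM for the others.

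**Figure D5:**
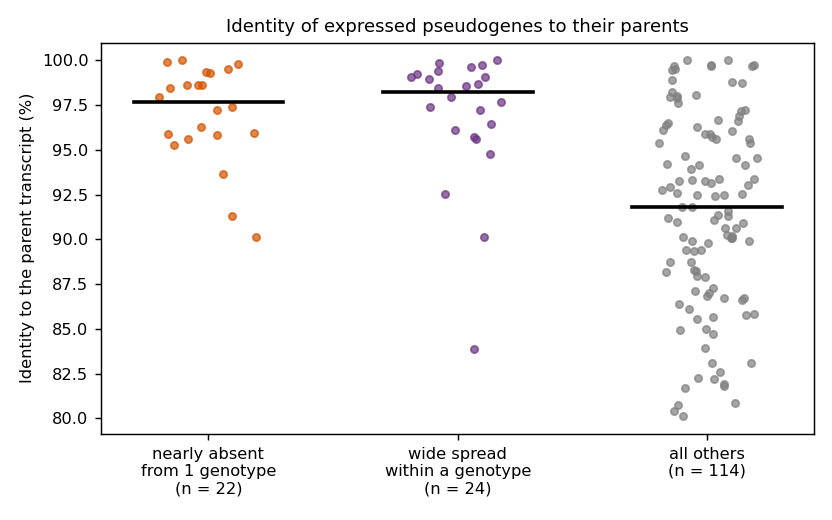
Identity of each member's transcript to its parent transcript (vertical, percent) for members nearly absent from 1 genotype (22), members with a wide spread within a genotype (24) and all others with a parent (114); bars are medians. The first 2 classes, which share 7 members, lie mostly above 95%, while the others are spread down to the 80% limit of the search.

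Of the 10 members most abundant per kilobase of exon, 5 were called and 5 did not pass, beside 13.9% called among all tested genes. Gm15914, a processed copy that lies opposite to Glipr1l2, stood first at 40.9 CPM per kb, with 11.7 ± 0.751 CPM in FXR-/- and 13.6 ± 3.21 CPM in WT testes (SD, n = 5 each; edgeR adjusted p = 0.232). Pisd-ps1, a transcribed unprocessed copy of the phosphatidylserine decarboxylase gene Pisd, followed at 31.3 CPM per kb. It averaged 55.8 ± 4.81 CPM in FXR-/- and 54.4 ± 8.15 CPM in WT testes (SD, n = 5 each; edgeR adjusted p = 0.998). The mitochondrial-like sequence RP23-8J15.5, matched to mt-Nd3, averaged 6.56 ± 1.32 CPM in FXR-/- and 5.72 ± 0.442 CPM in WT testes (SD, n = 5 each; edgeR adjusted p = 0.458), and reads of the mitochondrial genome could be shared with it. BC022960 and Gm17132 did not pass either (edgeR adjusted p = 0.146 and 0.783). The 5 called were Gm6472, above, which reached 1 CPM in FXR-/- testes alone, and 4 described next.

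A pair of copies of 1500011B03Rik on different chromosomes rose together, and whether reads were shared between the 2 rows was not tested. Gm13988 had 10.0, 8.66, 7.64, 10.4 and 7.79 CPM in FXR-/- libraries, against 4.34, 4.40, 5.38, 5.84 and 4.61 CPM in WT libraries, a log2 fold change of 0.82 ± 0.12 (SE; edgeR adjusted p = 0.00139). Gm11331 had 6.75, 5.89, 4.97, 7.52 and 5.49 CPM in FXR-/- libraries, against 3.10, 3.77, 3.71, 3.95 and 3.37 CPM in WT libraries, a log2 fold change of 0.74 ± 0.12 (SE; edgeR adjusted p = 0.00325). For both, every FXR-/- library was above every WT library. The parent averaged 21.5 ± 1.00 CPM in FXR-/- and 20.2 ± 1.61 CPM in WT testes (SD, n = 5 each) and did not pass (edgeR adjusted p = 0.602).

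Melanoma antigen family pseudogenes of the Mageb group, which sit among relatives on chromosome X, were higher in 3 cases and lower in 1, and 2 did not pass. Among all tested genes 6.17% were higher and 7.71% lower, and this group was not 1 of the parent families used to name members. Gm41 had 24.9, 23.2, 19.3, 21.3 and 21.3 CPM in FXR-/- libraries, against 15.4, 17.4, 17.9, 17.6 and 19.0 CPM in WT libraries (log2 fold change 0.30 ± 0.07, SE; edgeR adjusted p = 0.0227). Its neighbour Mageb7-ps had 11.4, 15.8, 17.2, 13.1 and 13.4 CPM in FXR-/- libraries, against 20.7, 22.9, 18.1, 17.7 and 25.9 CPM in WT libraries (log2 fold change -0.60 ± 0.13, SE; edgeR adjusted p = 0.0129). The genotypes did not overlap for either, and the 2 neighbours changed in opposite directions. The call of Gm41 was lost without FXR-/- mouse 9 or without WT mouse 4. Named after their values were seen, Mageb8-ps (log2 fold change 0.56, edgeR adjusted p = 0.0114) and Mageb17-ps (0.61, adjusted p = 0.0387) rose, while Mageb6-ps (0.52, adjusted p = 0.0538) and Mageb10-ps (0.24, adjusted p = 0.129) did not pass. Mageb4, the parent of Mageb10-ps, was higher (0.31, edgeR adjusted p = 0.00521). Of the germ cell markers, 3 of 10 were higher and 0 lower, with summed levels of 1401 to 1826 CPM in FXR-/- and 1047 to 1565 CPM in WT libraries, and their part in these differences was not tested.

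Copies of ribosomal protein genes, the parents that have left the most pseudogenes in mammalian genomes, numbered 17. Of these 4 were higher, 0 lower and 13 did not pass, beside 6.17% higher and 7.71% lower among all tested genes. Of 87 tested ribosomal protein genes themselves 31 were higher and 0 lower, with a median log2 fold change of 0.11. Among the 4 higher copies were Gm6472 and Gm11222, above. These reached 1 CPM in FXR-/- testes alone, so the choice of members bears on their direction. The parent of Gm11222, Rpl7l1, encodes a relative of a ribosomal protein, and without it 3 of 16 were higher. The others, named after their values were seen, were Gm16184, a copy of Rpl14 with 2.14 ± 0.0970 CPM in FXR-/- and 1.39 ± 0.127 CPM in WT testes (SD, n = 5 each; edgeR adjusted p = 0.00634), and Gm11380, a copy of Rpl17 with 2.16 ± 0.465 CPM in FXR-/- and 1.37 ± 0.176 CPM in WT testes (SD, n = 5 each; edgeR adjusted p = 0.0289). The 13 members with 1 CPM in both genotypes had a median log2 fold change of 0.23.

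Copies of translation factor genes, by the parent found, numbered 7, with 1 higher, 1 lower, 3 not passed and 2 not tested. The shares among all tested genes were 6.17% higher and 7.71% lower. Eif4a-ps4, above, was also called higher, but no parent was found for it and it is not among the 7. The higher one of the 7, Eif3s6-ps2, reached 1 CPM in FXR-/- testes alone, so the choice of members bears on its direction. The lower one was Gm6548, a copy of the elongation factor gene Eef1a1, with 7.99, 7.07, 6.23, 5.29 and 6.12 CPM in FXR-/- libraries, against 14.6, 12.3, 11.4, 10.4 and 11.8 CPM in WT libraries (log2 fold change -0.93 ± 0.12, SE; edgeR adjusted p = 0.000659). Every FXR-/- library was below every WT library, while Eef1a1 did not pass (edgeR adjusted p = 0.727). Of 5 copies of glycolytic genes 2 were higher, both of Gapdh, namely Gm13394 and Gm9522, beside 6.17% of all tested genes. Both reached 1 CPM in FXR-/- testes alone, so the choice of members bears on their direction. Gm9522 averaged 1.26 ± 0.402 CPM in FXR-/- and 0.478 ± 0.307 CPM in WT testes (SD, n = 5 each; edgeR adjusted p = 0.0345), and its call was lost without FXR-/- mouse 8 or 11 or WT mouse 4, 5 or 6. Of 5 copies of high mobility group and histone genes, 3 were the nearly absent members described above, of which Gm18367 alone was tested and called.

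Smaller groups held few calls. Both tested copies of RNA-binding protein genes, Gm12696 of Hnrnpc (edgeR adjusted p = 0.199) and Gm5778 of Hnrnpa2b1 (adjusted p = 0.319), did not pass. The same held for both ubiquitin and proteasome copies, Gm11843 of Ube2v2 (adjusted p = 0.320) and Gm8902 of Usp12 (adjusted p = 0.298). Of 2 actin and tubulin copies Gm8399, above, was higher. Of 2 respiratory chain copies Gm15920 was lower and Gm6969, a copy of Cox7a2l, was not tested, with 4.27, 3.73, 0.0252, 3.60 and 3.53 CPM in FXR-/- libraries, against 0.0886, 0.114, 0.0928, 0.208 and 0.118 CPM in WT libraries. Among the 234 members with a sequence to search, none was matched to a heat shock, ferritin, thymosin or peptidyl-prolyl isomerase parent. Members with other parents numbered 110, with 14 higher and 10 lower, and those with no parent found 108, with 14 higher and 5 lower. Among all tested genes 6.17% were higher and 7.71% lower. Only 79 of the 110 and 94 of the 108 reached 1 CPM in both genotypes, so the choice of members bears on these counts. It bears likewise on the calls of Gm8399 and Gm15920, which each averaged 1 CPM or more in a single genotype.

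Among the falls that were not near absences, Gm7785 was the largest. This copy of the zinc finger gene Zfp330 had 0.151, 0.274, 0.378, 0.263 and 0.392 CPM in FXR-/- libraries, against 2.51, 1.17, 2.38, 2.23 and 2.37 CPM in WT libraries (log2 fold change -2.87 ± 0.27, SE; edgeR adjusted p = 5.16e-05). Gm15784, a copy of the transcriptional repressor gene Nacc1, fell by 1.25 on the log2 scale (edgeR adjusted p = 0.00933). On chromosome 2, 3 members fell by 0.95 (Gm14411), 0.85 (Gm14421) and 0.82 (Gm14324) on the log2 scale, with edgeR adjusted p of 0.0130, 0.00966 and 0.00690. In these last 3 the change was under 2-fold. At least Gm7785, Gm15784 and Gm14411 reached 1 CPM in WT testes alone, so the choice of members bears on their direction.

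The choice of members depends on the 1 CPM limit. Just inside it were Gm12361 at 1.0034 CPM in WT, Rps15a-ps3 at 1.0045 CPM in FXR-/- and Gm11870 at 1.0051 CPM in FXR-/- testes. Just outside were Gm6767 at 0.998 CPM and Gm1966 at 0.995 CPM in WT and Gm13147 at 0.994 CPM in FXR-/- testes. Exons of 38 members overlapped an exon of another gene, in 25 on the opposite strand only, and because the sources used here do not say whether counting used strand, reads of those genes cannot be told apart. Of the 24 nearly absent members 2 had such an overlap.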

How the data were processed

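RNA of whole testes was sequenced from 5 FXR-/- and 5 WT mice aged 10 days. Libraries came from 1 µg of total RNA and an Illumina TruSeq kit, per the labels' protocols. The submitters' processing notes name FastQC 0.10.1, CASAVA, Bowtie, TopHat2 2.0.10, Bowtie2 2.1.0 and mm10. How reads were counted, with which annotation, with or without strand, and where multiply aligned reads went is not given in the sources used here. These steps decide how near-identical copies share reads. The deposited table held the authors' raw counts per gene for each library, which were the only values used. The 20 deposited normalized columns had lost their decimal marks. Groups come from the titles, whose numbers name mice.

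CPM is the count over the library's total. Counts were filtered with filterByExpr, scaled with TMM and tested by edgeR 4.0.16 (quasi-likelihood, two-sided, Benjamini-Hochberg over 18559 genes, threshold 0.05), FXR-/- over WT. DESeq2 1.42.0, other scalings and filters, single omissions and other limits were alternatives. Positions and types come from GENCODE M21 (GRCm38, the mm10 build), matched by identifier for 30212 of 30719 rows, and for 11 members from RefSeq GRCm38.p6. Parents were found with blastn 2.17.0 (e-value 1e-10). Ratios to parents used 0.05 CPM as pseudocount. The edgeR step was first tested on simulated counts.

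Members, limits and lists were chosen with earlier results of these data known. Named members were, by rule, the 12 largest rises and 12 largest falls among called members, every nearly absent one, the 10 most abundant per kilobase, 3 on each side of the limit, and 2 per parent family.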

Additional observations from a re-analysis of the deposited data

Results flagged for a closer look

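In 5 of 65 groups of values (named members, in each genotype where they averaged at least 1 CPM), 1 library lay beyond Dixon's 95% critical value for 5 samples (0.710), where chance flags about 1 in 20. Gm6472 had 0.274 CPM in FXR-/- mouse 9, against 27.7 to 33.4 CPM in the other 4 FXR-/- mice. Gm15487 had 3.48 CPM in FXR-/- mouse 8, against 7.10 to 7.79 CPM in the other 4. Gm7785 had 1.17 CPM in WT mouse 4, against 2.23 to 2.51 CPM in the other 4 WT mice. Gm15264 had 2.24 CPM in FXR-/- mouse 11, against 1.34 to 1.57 CPM in the other 4, and Rps15a-ps3 had 1.42 CPM there, against 0.795 to 0.958 CPM.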

How the results depend on the processing

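No paired analysis was possible because the labels name no pairs or litters. The number 9 occurs in both genotypes but is not given as marking a pair. Of the members, 37 were called higher and 17 lower in FXR-/- testes. The counts were 53 and 24 with DESeq2, 46 and 16 without a filter, 43 and 15 with library totals alone, and 34 and 14 without FXR-/- mice 9 and 10, the mice highest in adipocyte markers. Leaving out single mice gave 31 to 40 higher and 13 to 18 lower members, and 1427 to 2867 called genes in all, against 2576. Called genes fell to 1427 without FXR-/- mouse 11, 1635 without FXR-/- mouse 12 and 1601 without WT mouse 4, and the cause was not tested.

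With a limit of 0.5 CPM there were 418 members, 51 of them higher and 25 lower. With 2 CPM there were 165, 32 of them higher and 11 lower. Without members whose exons overlapped another gene, 32 were higher and 15 lower. Counting only members under 98% identical to the parent, or with no parent found, 27 were higher and 15 lower. Among members with 1 CPM in both genotypes, 19 were higher and 6 lower. No called value of a named member changed sign, and 30 of 33 named calls held in every single omission. The exceptions were Gm12361, Gm41 and Gm9522. Gm14411 was lost without FXR-/- mice 9 and 10 together. Members near 1 CPM rest on the fewest counts, and the floor and intervals cover counting error alone. The 7 nearly absent members seen in only some FXR-/- mice were removed by the filter before edgeR's test, and in the exact permutation test of the ratio to the parent their p was 0.0238 to 0.270 (adjusted 0.0753 to 0.399).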
